A study of Homo sapiens with 12 samples.

Results

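The genes described are 10 members of the EGFR pathway at the cell surface: the receptors EGFR, ERBB2 and ERBB3, the ligands AREG, EREG, HBEGF, TGFA and BTC, and the feedback inhibitors ERRFI1 and LRIG1. They were taken by symbol from the table of read counts, where each symbol matched 1 row, so that 10 of the 60623 genes listed were members. The samples were 4 stable lines of A549, an established line of human lung adenocarcinoma cells, each sequenced as 3 libraries labelled biological replicates. All 4 lines were infected with a lentivirus (pLV-EF1a-IRES-Hygro backbone) and selected with hygromycin. V carried the empty vector and WT carried HA-tagged wild-type AHR. SA carried HA-tagged AHR with S489A, which cannot be phosphorylated at that serine. SD carried HA-tagged AHR with S489D, which mimics the phosphate. All 4 lines also kept the AHR gene of A549. The comparisons address how phosphorylation of AHR at S489 by the kinase PLK1 bears on gene expression. The authors report more metastasis from WT and SD cells than from V and SA cells. Each construct was carried by 1 line, so effects of the construct and of the line cannot be told apart.

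EGFR and its relatives are receptor tyrosine kinases that pair with one another when a ligand binds and then signal through RAS and ERK and through PI3K and AKT. Their ligands are made as precursors in the cell membrane and are released by metalloproteases such as ADAM17. In lung adenocarcinoma the pathway is a known driver of growth, and several of its ligands and inhibitors are themselves induced by its signal.

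Expected counts summed to between 7844045 and 11765576 per library, so that 3 counts, the limit set for a gene with no count, corresponded to 0.255 to 0.3825 CPM (each count divided by the total of its library and scaled to a common size). Such limits cover counting error only. Levels are CPM with TMM-scaled library sizes, given as mean ± SD (n = 3 libraries per line throughout). The transgene was visible as AHR, which was at 69.0 ± 4.67 CPM in V and 266 ± 28.8 in WT, with SA at 224 ± 6.20 and SD at 210 ± 9.86. Summed with an overlapping gene, ENSG00000283321, it ranged from 65.7 to 74.4 CPM in V, 449 to 483 in WT, 370 to 409 in SA and 291 to 305 in SD. The summed level thus differed between WT, SA and SD without overlap, so the form of AHR and its amount cannot be told apart. By correlation over the genes kept by a filter on low counts, no library stood apart. The median correlation to the other libraries was between 0.979 and 0.984. The chi-square of counts per degree of freedom between libraries of a line was highest for SD replicates 1 and 3, at 6.43. Other pairs were at 2.45 to 4.57. Of 5 epithelial markers, KRT8, KRT18 and CDH1 were abundant, EPCAM was near 1 CPM (0.723 to 1.46 CPM by line mean), and KRT19 was below that. Of 6 alveolar type II markers only ABCA3 was clearly present (71.1 to 73.7 CPM by line mean), while NKX2-1 and the 4 surfactant genes were at or near 0. Of the markers of other cells, the 3 endothelial ones, PTPRC, CD3E, DCN, LUM and PDGFRA were at or near 0 in every line. The macrophage marker CD68 was present at 25.6 to 33.0 CPM by line mean, lowest in V, with counts that were not whole in any library, and COL1A1 was at 6.54 to 11.4 CPM, highest in V. Their part in the differences between lines was not tested.

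EREG, AREG and BTC lie in 1 cluster on chromosome 4 together with EPGN. On GRCh38, EREG (epiregulin, ENSG00000124882) spans chr4:74365145-74388749 on the plus strand. AREG (amphiregulin, ENSG00000109321) follows it at chr4:74445136-74455005 on the same strand, after a gap of 56.4 kb, and BTC (betacellulin) lies 290 kb further on the minus strand. TGFA (transforming growth factor alpha) is at chr2:70447284-70554193 on the minus strand. The promoter sequences of these ligands are shown because EREG and TGFA were the members that passed the test against V, whereas AREG, the neighbour of EREG, did not. Each is the 250 bases before the start site in RefSeq on GRCh38.p14, written 5′ to 3′ on the strand of the gene, for EREG chr4:74364895-74365144 (plus), for AREG chr4:74444886-74445135 (plus) and for TGFA chr2:70553827-70554076 (minus). Capitals mark GCGTG, the core of the element that AHR binds with its partner ARNT, read on either strand, so that a match on the other strand appears as CACGC.
EREG: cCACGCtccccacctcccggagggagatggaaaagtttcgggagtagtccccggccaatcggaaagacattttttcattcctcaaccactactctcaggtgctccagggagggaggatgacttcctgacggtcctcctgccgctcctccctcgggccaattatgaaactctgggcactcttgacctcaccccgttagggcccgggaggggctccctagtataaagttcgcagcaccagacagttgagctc
AREG: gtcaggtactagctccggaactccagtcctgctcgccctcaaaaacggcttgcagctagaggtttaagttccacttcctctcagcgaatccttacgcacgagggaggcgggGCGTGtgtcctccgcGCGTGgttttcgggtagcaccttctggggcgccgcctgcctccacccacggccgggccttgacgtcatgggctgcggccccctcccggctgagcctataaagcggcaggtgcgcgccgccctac
TGFA: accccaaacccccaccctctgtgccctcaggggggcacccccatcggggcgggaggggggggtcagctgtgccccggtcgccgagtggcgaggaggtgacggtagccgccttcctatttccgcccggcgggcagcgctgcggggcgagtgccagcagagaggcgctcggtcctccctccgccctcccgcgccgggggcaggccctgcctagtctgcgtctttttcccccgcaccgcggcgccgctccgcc
The EREG promoter held 1 match, on the opposite strand and 249 bases before the start. AREG held 2 matches on its own strand, at 139 and 124 bases before the start, and TGFA held 0. This RefSeq start of TGFA, the nearest to the deposited start of the gene, lies 367 bases from it, and the window of another TGFA start, 747 bases from it, held 1 match. Of the 9 members with a RefSeq promoter, 4 held the motif within the 250 bases before the start nearest to the deposited one (AREG, BTC, EREG and LRIG1), beside 32.2% of all 35116 promoter windows of that length. ERBB3 was not among the 9. A match of 5 letters is a description of the sequence and no evidence of binding.

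**Figure D1:**
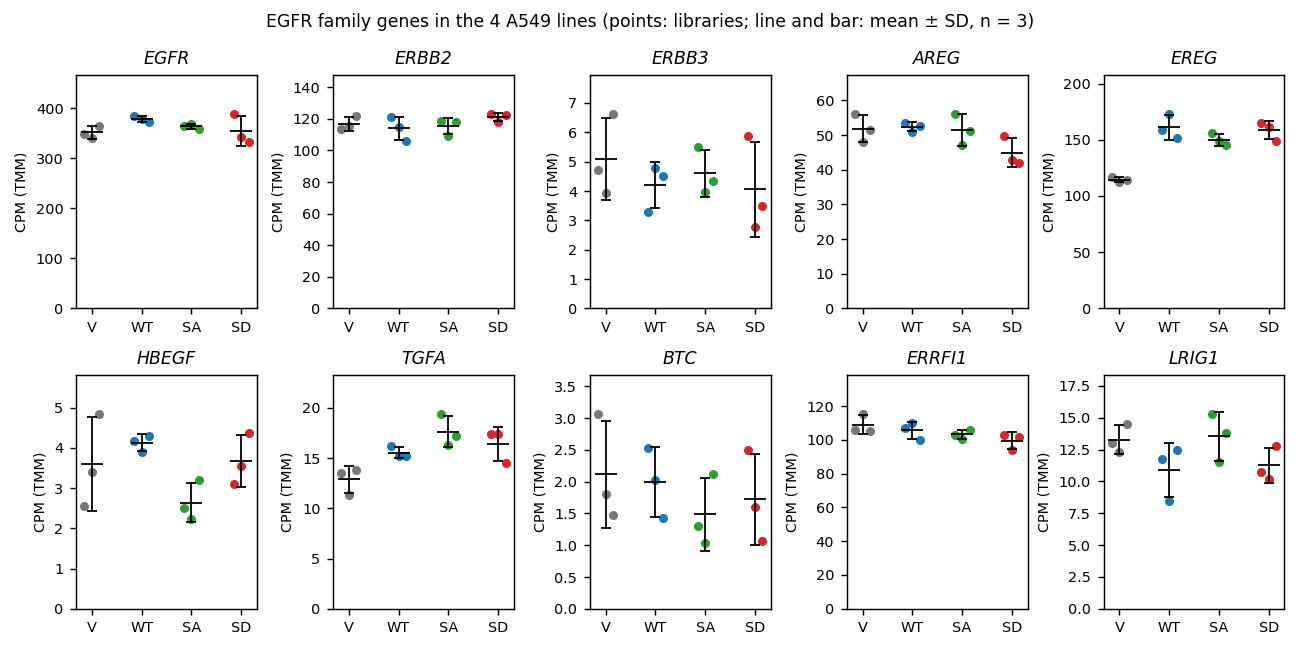
CPM of each of the 10 genes (vertical axes, each from 0) in the 4 lines (horizontal axes). Points are libraries, and the line and bar are mean ± SD, n = 3. For EREG the 9 libraries of WT, SA and SD sit between 145 and 173 CPM, all above the V libraries at 112 to 117, while the libraries of ERBB2 overlap in all lines.

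The members formed an abundant and a scarce group when levels were divided by the length of the canonical transcript. Medians over the 12 libraries were 41.4 CPM per kb for AREG, 36.8 for EGFR, 33.6 for ERRFI1, 32.6 for EREG and 25.9 for ERBB2. TGFA had a median of 3.82 CPM per kb, LRIG1 of 2.31, HBEGF of 1.47, ERBB3 of 0.790 and BTC of 0.643. The lowest library of ERBB2 (23.3 CPM per kb) was above the highest of TGFA (4.71), and this was the only pair of neighbours in the order whose ranges over the 12 libraries did not overlap. AREG was thus the ligand and EGFR the receptor with the highest median per length, while ERBB3, the partner with little kinase activity of its own, was near the bottom.

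**Figure D2:**
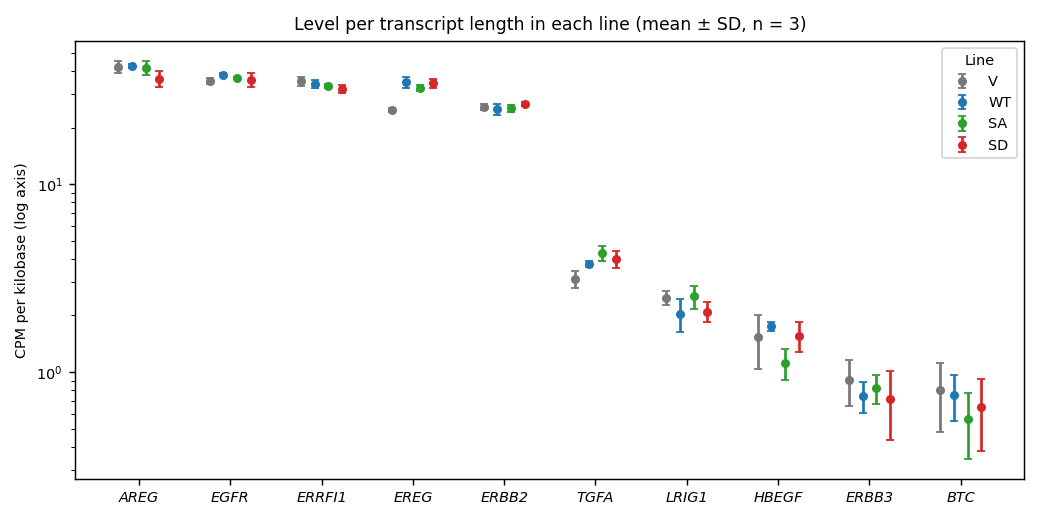
Level of each gene in CPM per kilobase of canonical transcript (vertical log axis) in the 4 lines, as mean ± SD, n = 3. AREG, EGFR, ERRFI1, EREG and ERBB2 have medians of 25.9 to 41.4 CPM per kb, and the other 5 genes have medians of 0.643 to 3.82.

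Against V, EREG was higher in all 3 lines with an AHR construct, and TGFA passed the test in SA. None of the receptors or inhibitors passed. By the quasi-likelihood test of edgeR with Benjamini-Hochberg adjustment over all genes tested (adjusted p under 0.05), 1 of 10 members rose in WT against V, beside 2.31% of all genes called higher and 5.24% called in either direction. In SA, 2 of 10 rose, beside 3.88% of all genes called higher and 7.17% in either direction. In SD, 1 of 10 rose, beside 2.92% called higher and 5.41% in either direction. No member fell in these comparisons, beside 2.93%, 3.29% and 2.49% of all genes called lower in WT, SA and SD. The median log2 fold change of the 10 members was -0.01 in WT, -0.02 in SA and -0.06 for SD, and over all genes tested it was 0.0018, -0.0024 and 0.0030. All 10 members passed the filter on low counts in every comparison. The comparisons with V share the 3 V libraries, so their results are not independent of one another.

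EREG, a ligand of EGFR and ERBB4, was at 117, 112 and 115 CPM in the V libraries. It was at 159, 173 and 152 CPM in WT, at 156, 149 and 145 in SA, and at 165, 161 and 149 in SD. Every library with an AHR construct was above every V library, by at least the distance from 117 to 145 CPM. The log2 fold change against V was 0.49 in WT (SE 0.05, 95% interval 0.38 to 0.61, 1.41-fold), with an adjusted p of 2.76e-07 in edgeR. It was 0.38 in SA (SE 0.06, interval 0.27 to 0.50, 1.30-fold, edgeR adjusted p = 2.81e-05) and 0.47 in SD (SE 0.06, interval 0.35 to 0.59, 1.38-fold, edgeR adjusted p = 5.76e-06). Among the lines with AHR the EREG libraries overlapped. The log2 difference was -0.03 for SD against WT (interval -0.16 to 0.10, edgeR adjusted p = 0.911), 0.08 for SD against SA (interval -0.05 to 0.21, edgeR adjusted p = 0.748) and 0.11 for WT against SA (interval -0.01 to 0.23, edgeR adjusted p = 0.693). The summed level of the 5 epithelial markers was also apart between V (6059 to 6297 CPM) and the other lines. The sum was 4819 to 4861 for WT, 4654 to 4852 for SA and 4383 to 4644 for SD. Most of it was KRT8 and KRT18. Line means ran from 2440 (SD) to 3264 CPM (V) for KRT8, and from 1962 (SD) to 2730 CPM (V) for KRT18. By line mean CDH1 was also highest in V (170 CPM), but SD (126) exceeded both WT (112) and SA (113). The part of these markers in the EREG result was not tested.

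TGFA, a ligand of EGFR, was at 13.5, 11.3 and 13.8 CPM in V and at 16.2, 15.2 and 15.2 in WT. It was at 19.4, 16.3 and 17.2 CPM in SA and at 17.4, 17.4 and 14.5 in SD. All 9 libraries with AHR were above the highest V library, although the lowest SD library exceeded it by little. The log2 fold change was 0.44 in SA (SE 0.13, interval 0.17 to 0.71, 1.36-fold, edgeR adjusted p = 0.0380). In WT it was 0.27 (interval -0.01 to 0.54, edgeR adjusted p = 0.306) and in SD 0.34 (interval 0.06 to 0.63, edgeR adjusted p = 0.166). The gains were not shown to differ between these lines. The log2 difference of WT against SA was -0.18 (interval -0.43 to 0.07, edgeR adjusted p = 0.776) and that of SD against SA was -0.10 (interval -0.36 to 0.16, edgeR adjusted p = 0.881). The call in SA was lost with DESeq2 (adjusted p = 0.0885), without SA replicate 1 (0.120) or 3 (0.0827), and without V replicate 1 (0.0732), 2 (0.149) or 3 (0.0563).

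AREG, a ligand of EGFR alone, was at 56.0, 48.0 and 51.5 CPM in V, at 53.6, 51.0 and 52.7 in WT and at 56.2, 47.1 and 51.1 in SA. In SD it was at 49.7, 42.9 and 42.0 CPM. The SD libraries were all below the WT libraries but overlapped those of V and SA. The log2 difference was -0.21 for SD against V (interval -0.39 to -0.03, edgeR adjusted p = 0.176) and -0.23 for SD against WT (interval -0.40 to -0.06, edgeR adjusted p = 0.272). Against SA it was -0.19 (interval -0.37 to -0.01, edgeR adjusted p = 0.565), so AREG did not pass in any comparison. In WT and SA the log2 difference of AREG from V was 0.01 (interval -0.15 to 0.17) and -0.02 (interval -0.19 to 0.15).

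HBEGF (chr5:140332843-140346603), a ligand of EGFR and ERBB4, had only 25 to 49 counts per library. Its level was 3.60 ± 1.16 CPM in V and 4.13 ± 0.214 in WT, with SA at 2.64 ± 0.495 and SD at 3.67 ± 0.654. The 3 WT libraries were above the 3 SA libraries, with a log2 difference of 0.64 (interval 0.07 to 1.22, edgeR adjusted p = 0.649). BTC (chr4:74744759-74794523), another ligand of EGFR and ERBB4, had 12 to 30 counts per library and levels of 2.12 ± 0.842 CPM in V and 2.00 ± 0.550 in WT, with SA at 1.49 ± 0.572 and SD at 1.72 ± 0.718. At these depths the intervals were wide. For BTC in SA against V the log2 fold change of -0.52 had an interval from -1.34 to 0.31, which holds both a marked loss and a gain.

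**Figure D3:**
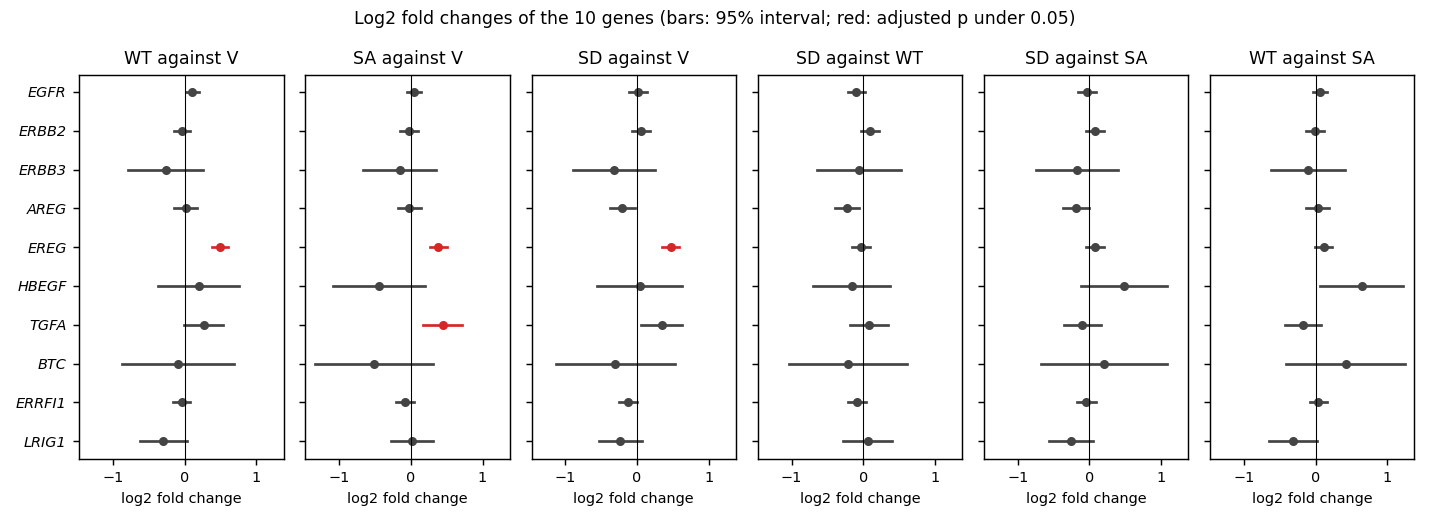
Log2 fold changes (horizontal axes) of the 10 genes in the 6 comparisons of lines, with 95% intervals as bars. Red marks an edgeR adjusted p under 0.05, which EREG reaches in WT (0.49), SA (0.38) and SD (0.47) against V and TGFA in SA against V (0.44); no gene is red in the comparisons among WT, SA and SD.

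No receptor passed the test in any comparison. EGFR (ENSG00000146648, chr7:55019017-55211628) was at 349, 341 and 365 CPM in V and at 384, 379 and 372 in WT. It was at 365, 367 and 358 CPM in SA and at 389, 343 and 332 in SD. The WT libraries were above those of V and SA, while the SD libraries held both the highest and the lowest value of all. The log2 fold change of EGFR in WT against V was 0.11 (interval 0.02 to 0.19, edgeR adjusted p = 0.178), and in SA and SD against V it was 0.04 and 0.01, with intervals from -0.05 to 0.14 and from -0.11 to 0.14. ERBB2 (chr17:39687914-39730426), the receptor with no ligand of its own, was at 117 ± 4.54 CPM in V and 114 ± 7.37 in WT, with SA at 115 ± 5.03 and SD at 121 ± 2.76, and its 6 intervals all lay within -0.16 and 0.22 on the log2 scale. ERBB3 (chr12:56076799-56103505), which binds neuregulins, had 26 to 63 counts per library, with 5.09 ± 1.40 CPM in V and 4.20 ± 0.792 in WT, with SA at 4.60 ± 0.805 and SD at 4.05 ± 1.63. Its log2 difference from V was lowest in SD, at -0.32 (interval -0.89 to 0.25, edgeR adjusted p = 0.614).

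The inhibitors did not pass either. ERRFI1 (MIG6, chr1:8004404-8026309), which binds the EGFR kinase domain and blocks it, was at 106, 115 and 105 CPM in V, at 107, 110 and 100 in WT, at 103, 101 and 106 in SA and at 103, 94.0 and 102 in SD. The SD libraries were all below the V libraries. The log2 fold change of ERRFI1 in SD against V was -0.13 (interval -0.26 to 0.0031, edgeR adjusted p = 0.302). LRIG1 (chr3:66378797-66501263), a membrane protein that lowers receptor levels, was at 13.3 ± 1.15 CPM in V and 10.9 ± 2.13 in WT, with SA at 13.5 ± 1.91 and SD at 11.2 ± 1.36. Its largest log2 difference was -0.32 in WT against SA (interval -0.65 to 0.02, edgeR adjusted p = 0.692). Of its 7043 exonic bases, 2669 are shared with SLC25A26 on the opposite strand. SLC25A26 had at most 108 counts in a library, beside 93 to 156 for LRIG1. The strand setting of the counting is not given in the sources used here. Whether reads of the 2 genes were told apart there is thus not known. LRIG1 counts were whole in 12 of 12 libraries. ERBB2 shares 571 of 10321 exonic bases with MIEN1 and 144 with PGAP3, also on the opposite strand. EGFR shares 186 of 15941 with EGFR-AS1 and ERRFI1 shares 155 of 4179 with ENSG00000284747, again on the opposite strand. On the same strand, ERBB3 shares 31 of 11711 exonic bases with ENSG00000257411, which had at most 46.5 expected counts in a library.

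Between the lines with AHR, 0 of 10 members passed in SD against either WT or SA or in WT against SA, beside 0.708%, 0.220% and 0.0803% of all genes. At an unadjusted p under 0.05 there was 1 member in each (AREG, AREG and HBEGF), beside 10.6%, 8.52% and 7.31% of all genes, and DESeq2 also called 0 in each. The libraries of both lines did not overlap for 1 member in SD against WT (AREG), for 0 in SD against SA and, comparing WT with SA, for 3 (EGFR and HBEGF above, TGFA below), beside 16.0%, 13.5% and 13.0% of all genes. Against V the members without overlap were EGFR, EREG and TGFA in WT, EREG and TGFA in SA, and EREG, TGFA and ERRFI1 in SD, beside 21.8%, 23.8% and 21.4% of all genes. The median log2 difference of the members was -0.07 for SD against WT, -0.04 for SD against SA and 0.04 between WT and SA. A p that misses the threshold does not show that the 3 forms of AHR act alike, and the intervals above bound what these libraries allow. The lines with these forms also differed in the summed AHR level given above.

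The genes that correlated most with EGFR, AREG and EREG over the 12 libraries are named as a description, with no test. By Pearson correlation of log2 CPM among 11330 genes with a mean of at least 5 CPM, those most like EGFR were HPS4 (0.842), GOLGA2P7 (0.839) and DPY19L3 (0.828), and those most like AREG were ATXN7L1 (0.872), KIF15 (0.852) and RRN3 (0.845). The same was read for EREG after its values had been seen. There the nearest genes were TNC (0.970), DCBLD2 (0.951) and MOK (0.948). TNC, which encodes the matrix protein tenascin-C, was at 17.6 CPM by line mean in V, 36.8 in WT and 32.7 in SA, and SD was at 36.3. The 12 points come from 4 lines, so for EREG they include the step between V and the other lines. Each named gene was picked as among the highest of many correlations over 12 libraries, which does not show shared regulation.

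Of 60 other genes of the pathway, 56 passed the filter on low counts in every comparison. Against V, 6 rose and 2 fell in WT, beside 2.31% and 2.93% of all genes. In SA 7 rose and 1 fell, beside 3.88% and 3.29% of all genes, and in SD 8 rose and 1 fell, beside 2.92% and 2.49%. Among the lines with AHR, 1 fell in SD against WT (0.196% of all genes called lower) and 1 fell in SD against SA (0.0599%). Between WT and SA, 0 passed in the main edgeR fit. DESeq2 called 1, and so did edgeR with every gene tested or with replicate number as a block. In the main fit 5 of the 56 had an unadjusted p under 0.05, beside 7.31% of all genes. The median log2 fold change of the 56 against V was 0.06 for WT, 0.05 for SA and 0.04 for SD.

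Among the remaining receptor and ligand genes, ERBB4 had 1 count in all 12 libraries, NRG3 had 0, EPGN, the neighbour of EREG, had 9, and EGF had line means of 0.554 to 1.02 CPM. Of 3 tested, only NRG1, a neuregulin that binds ERBB3 and ERBB4, passed, in WT and SA, beside 2.31% and 3.88% of all genes called higher. It was at 112, 113 and 114 CPM in V, at 139, 133 and 132 in WT and at 135, 137 and 130 in SA, and at 122, 118 and 116 in SD. The log2 fold change was 0.25 in WT (edgeR adjusted p = 0.00249) and 0.24 in SA (edgeR adjusted p = 0.00589). Of 6 genes of ligand shedding, ADAM12, a membrane metalloprotease, rose in all 3 lines, beside 2.31%, 3.88% and 2.92% of all genes called higher. It was at 39.8, 38.4 and 41.3 CPM in V, at 55.5, 61.0 and 55.4 in WT, at 58.9, 57.5 and 62.1 in SA and at 70.3, 67.3 and 65.5 in SD. The libraries with AHR were all above those of V, and the log2 fold change of ADAM12 was 0.53 for WT, 0.57 for SA and 0.77 for SD (edgeR adjusted p = 2.62e-05, 6.47e-06 and 1.06e-07). RHBDF2, which carries ADAM17 to the cell surface, fell by 0.23 in WT and by 0.21 in SA on the log2 scale (edgeR adjusted p = 0.0140 and 0.0379). Of all genes, 2.93% and 3.29% were called lower in WT and SA. The RHBDF2 call was lost in WT without WT replicate 2 or 3 or V replicate 1 or 2, and in SA without SA replicate 2 or 3 or any V replicate, with DESeq2 or with every gene tested, and in both with all 12 libraries in one fit, with adjusted p up to 0.0833 and 0.172. ADAM17 itself, the main sheddase of these ligands, had line means of 80.6 to 86.8 CPM and did not pass.

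**Figure D4:**
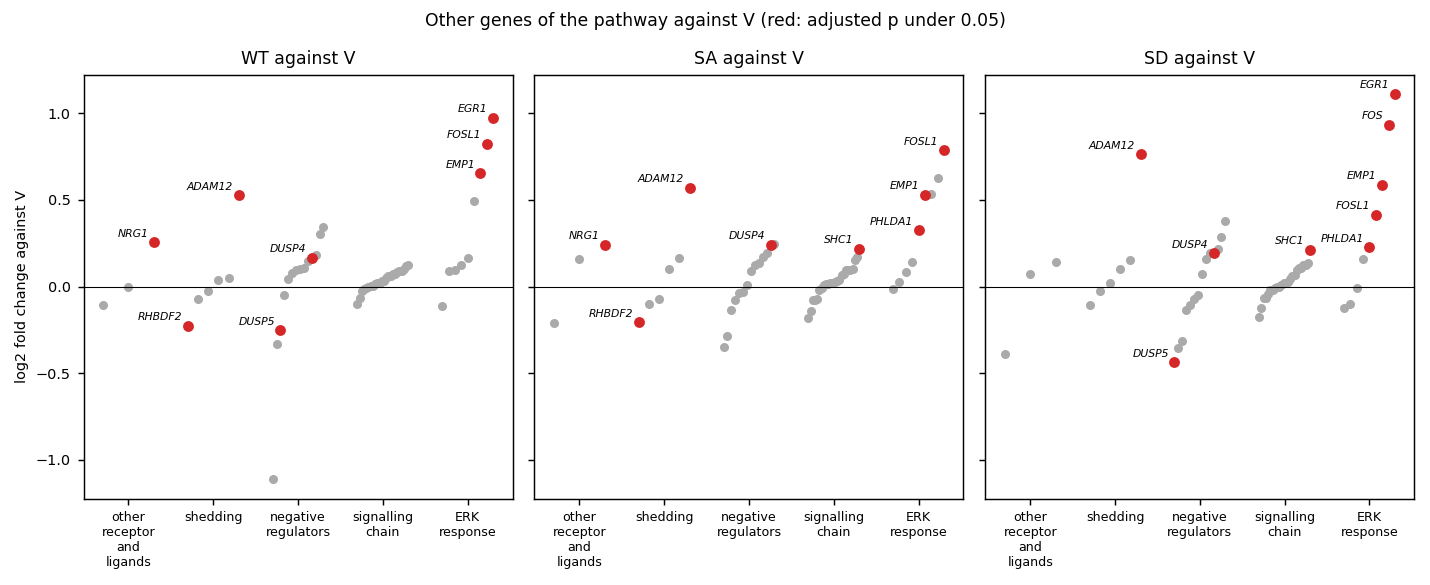
Log2 fold changes against V (vertical axis) of the 56 other pathway genes tested, in 5 lists along the horizontal axis, 1 panel per line. Each point is a gene, and red marks an edgeR adjusted p under 0.05: 8 genes in WT, 8 in SA and 9 in SD, among them ADAM12, FOSL1 and EMP1 in every panel.

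Of 9 genes that respond to ERK, 3 rose in WT, 3 in SA and 5 in SD against V, beside 2.31%, 3.88% and 2.92% of all genes called higher. None fell, beside 2.93%, 3.29% and 2.49% called lower. The median log2 fold change of this list was 0.17 for WT, 0.33 for SA and 0.23 for SD. Feedback inhibitors of the DUSP, SPRY and SPRED families are not in this list and were counted with the negative regulators. There DUSP4 rose and DUSP5 fell, while DUSP6 and the SPRY and SPRED genes passed in no line against V. For WT, SA and SD the log2 fold change was 0.31, 0.17 and 0.38 for DUSP6, 0.35, 0.24 and 0.16 for SPRY2, and 0.10, -0.03 and -0.31 for SPRY4. FOSL1, a subunit of the AP-1 transcription factor, was at 21.5, 24.3 and 21.5 CPM in V, at 38.6, 42.6 and 37.7 in WT, at 38.7, 38.9 and 39.0 in SA, and at 29.8, 30.1 and 29.8 in SD. The SD libraries thus stood between those of V and those of both WT and SA, without overlap. The log2 fold change of FOSL1 against V was 0.82 for WT, 0.79 for SA and 0.42 for SD (edgeR adjusted p = 4.61e-07, 7.67e-07 and 0.00967). The difference of SD from WT was -0.41 (interval -0.59 to -0.23, edgeR adjusted p = 0.0231), which did not pass when SD replicate 1 or 2 or any WT replicate was left out (highest adjusted p 0.129). Against SA the difference of SD was -0.37 (interval -0.55 to -0.20, edgeR adjusted p = 0.0761). EMP1, an epithelial membrane protein, rose by 0.65 in WT, 0.53 in SA and 0.59 in SD on the log2 scale (edgeR adjusted p = 0.00139, 0.0128 and 0.00659), from 11.8 ± 0.777 CPM in V. PHLDA1 rose by 0.33 in SA and 0.23 in SD (edgeR adjusted p = 2.20e-05 and 0.00824), from 338 ± 9.77 CPM in V. The immediate early genes EGR1 and FOS were low, at 3.30 ± 0.933 and 3.76 ± 0.0672 CPM in V. EGR1 rose by 0.98 in WT and 1.11 in SD (edgeR adjusted p = 0.0178 and 0.0132), and FOS rose by 0.93 in SD (edgeR adjusted p = 0.00864). Their SA libraries spread from 3.78 to 6.40 CPM for EGR1 and from 3.35 to 6.80 CPM for FOS and overlapped those of WT. The EGR1 call in WT was lost without WT replicate 2 or 3 or V replicate 2, and with replicate number as a block (edgeR adjusted p = 0.0559). In SD the EGR1 call was lost without SD replicate 3 or V replicate 2, and that of FOS without SD replicate 3. The EMP1 call in SA was lost without SA replicate 3 or V replicate 3. In SD the FOSL1 call was lost without V replicate 1 or 3, and that of PHLDA1 without V replicate 1 or 2. The highest edgeR adjusted p among these was 0.141. CCND1 (cyclin D1), IER3, ETV4 and ETV5 did not pass against V.

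**Figure D5:**
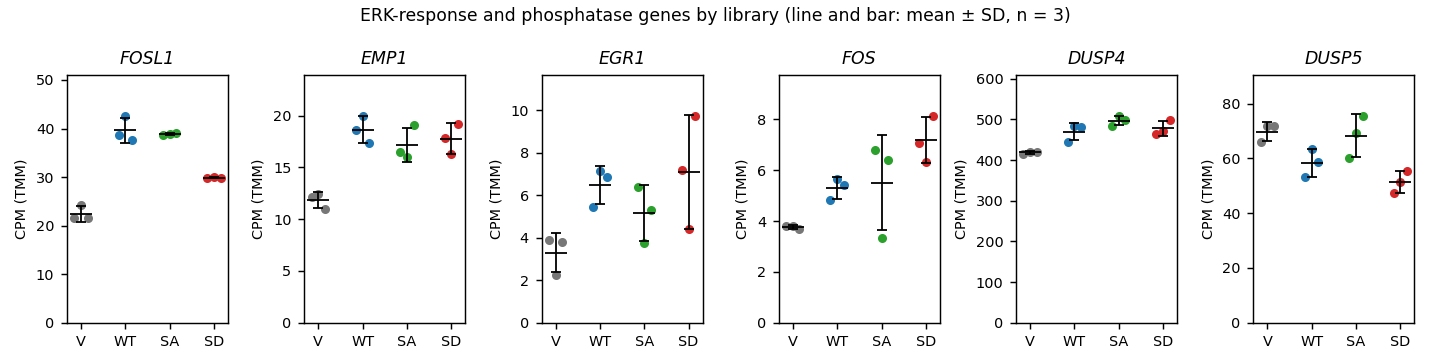
CPM (vertical axes, each from 0) of 4 ERK-response genes and the phosphatases DUSP4 and DUSP5 in the 4 lines. Points are libraries, and the line and bar are mean ± SD, n = 3. The FOSL1 libraries of SD sit at 29.8 to 30.1 CPM, between V (21.5 to 24.3) and both WT and SA (37.7 to 42.6), and the DUSP5 libraries of SD (47.4 to 55.5) lie below those of V (65.9 to 71.9).

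Among 14 negative regulators of the pathway, the 2 that passed were phosphatases of ERK. In WT and in SD 1 rose and 1 fell against V, and in SA 1 rose. Of all genes, 5.24%, 7.17% and 5.41% were called in WT, SA and SD. DUSP4 was at 419 ± 3.31 CPM in V and 470 ± 21.8 in WT, with SA at 497 ± 11.9 and SD at 478 ± 18.4. It rose by 0.17, 0.24 and 0.19 on the log2 scale (edgeR adjusted p = 0.0175, 0.000804 and 0.0252). DUSP5 was at 65.9, 71.7 and 71.9 CPM in V, at 53.1, 63.3 and 58.7 in WT, at 60.1, 69.2 and 75.5 in SA and at 47.4, 51.6 and 55.5 in SD. It fell by 0.25 in WT and by 0.44 in SD on the log2 scale (edgeR adjusted p = 0.0360 and 0.000384). The DUSP5 libraries of SD were also all below those of SA, with a log2 difference of -0.40 (interval -0.58 to -0.23, edgeR adjusted p = 0.0469), which did not pass when SD replicate 1 or 2 or SA replicate 2 or 3 was left out (highest adjusted p 0.306). The DUSP4 call was lost in WT without WT replicate 2 or 3 or V replicate 1 or 3, and in SD without SD replicate 2 or 3 or any V replicate. The DUSP5 call in WT was lost without WT replicate 1 or 3 or any V replicate, in a single fit of all 12 libraries and with DESeq2 (highest adjusted p 0.187). With replicate number as a block, the DUSP4 and DUSP5 calls in WT were also lost (edgeR adjusted p = 0.0580 and 0.0543). SPRY1, a feedback inhibitor of RAS signalling, had a log2 difference of -1.11 in WT against V on 36 counts over the WT libraries against 81 over those of V (interval -1.94 to -0.28, edgeR adjusted p = 0.119) and did not pass. Its level was 2.81 ± 0.695 CPM in V and 1.33 ± 0.686 in WT. In the chain from adaptors to ERK, AKT and STAT3, 23 of 24 genes passed in no comparison. Called against V were 0, 1 and 1 of the 24 in WT, SA and SD, beside 5.24%, 7.17% and 5.41% of all genes. The 1 gene called was SHC1, an adaptor that binds the phosphorylated receptors. SHC1 was at 310 ± 10.6 CPM in V and 338 ± 12.8 in WT, with SA at 362 ± 4.40 and SD at 360 ± 7.45. SHC1 rose by 0.22 in SA and 0.21 in SD (edgeR adjusted p = 0.00351 and 0.0134), a call lost without V replicate 1 in both and in SD also without SD replicate 2 or V replicate 2.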

How the data were processed

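RNA enriched for poly-A was sequenced from the V, WT, SA and SD lines. The authors trimmed reads with Trimmomatic 0.39, mapped them to GRCh38 transcripts with RSEM and deposited expected counts per gene and library, with no normalization. The annotation release and the strand setting are not given in the sources used here. RSEM splits reads that fit several genes, but the counts of all 10 members were whole in 12 of 12 libraries. Another deposited table holds the authors' own log2 fold changes, p-values and q-values and was not used. No column was left unassigned to a library.

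Expected counts were rounded and tested with edgeR 4.0.16 under R 4.3.3. Every comparison used only the 6 libraries concerned and the genes kept by filterByExpr (minimum count 10, minimum total 15), TMM scaling and the two-sided quasi-likelihood test, with Benjamini-Hochberg adjustment over all genes tested and a threshold of 0.05. Standard errors were derived as the absolute log2 fold change divided by the square root of the F statistic of that test. Intervals are at 95%, built from these errors with a t quantile, and are approximate and not adjusted for the number of genes. DESeq2 1.42.0, size factors of DESeq2, every gene with at least 1 count, all 12 libraries in one fit, a replicate block and each library left out were the alternatives. The test was first run on simulated counts whose changes were larger than those of EREG and TGFA. That run does not bear on changes of their size, and its outcome is not reported here. No libraries of a line agreed within sampling noise. Transcript lengths and exon overlaps came from GENCODE 44 and promoters from RefSeq on GRCh38.p14. Figures were drawn with matplotlib 3.10.9.

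The 10 members and the lists of other pathway genes were chosen with earlier results of these data known. All members are described, called genes of each list are named (up to 4 per list and comparison, by smallest adjusted p, with the rest of a list named beside them), and the genes most like EGFR and AREG are the 3 with the highest correlation. The genes most like EREG, and the uncalled genes named from the lists, were chosen after their values were seen. Values of some listed genes are not reported here.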

Additional observations from a re-analysis of the deposited data

Results flagged for a closer look

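FOSL1 rose over V in both WT and SD, but by less in SD. The difference itself, tested between SD and WT, was -0.41 on the log2 scale (edgeR adjusted p = 0.0231), and all 3 SD libraries were below all 3 WT libraries. This call was lost without SD replicate 1 (adjusted p = 0.0503) or 2 (0.0798) and without WT replicate 1 (0.0740), 2 (0.129) or 3 (0.0522). DUSP5 fell in SD against V, while its mean in SA was 68.3 CPM against 69.8 in V. Its difference between SD and SA was -0.40 on the log2 scale (edgeR adjusted p = 0.0469), with all 3 SD libraries below all 3 SA libraries. That call was lost without SD replicate 1 (adjusted p = 0.172) or 2 (0.184) and without SA replicate 2 (0.205) or 3 (0.306). AHR summed with its overlapping gene also differed, at 449 to 483 CPM in WT, 370 to 409 in SA and 291 to 305 in SD. Its part in the FOSL1 and DUSP5 differences was not tested.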

How the results depend on the processing

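EREG stayed past the threshold against V under all 11 alternatives in each line, with log2 fold changes of 0.44 to 0.53 in WT, 0.36 to 0.41 in SA and 0.44 to 0.51 in SD. The number of members called was the same under every alternative, except in SA against V, where it was 1 instead of 2 with DESeq2 and between 1 and 2 when a library was left out. Of the 27 calls of other pathway genes, 12 held under every alternative and 15 were lost in some, and their cause was not tested. Among the lines with AHR some alternatives called more of these genes than the main fit. In SD against WT the block called 3. In SD against SA, 2 were called with every gene tested, with all 12 libraries in one fit or with the block. In WT against SA, 1 was called with every gene tested, with DESeq2 or with the block. Over all genes, the main counts for WT, SA and SD against V were 774, 1069 and 806, and leaving out a library gave 434 to 720, 621 to 1195 and 502 to 856. The count in SD against WT was 105 and became 252 with every gene tested, 245 with the block and 45 to 145 without a library. The count in SD against SA was 33 and became 153, 165 and 11 to 56, and in WT against SA it was 12 and became 103, 25 and 2 to 25, or 5 with all 12 libraries in one fit. Whether replicate numbers pair the libraries was not settled. Of 18 correlations of same-numbered libraries, 1 exceeded 0.1 (range -0.0376 to 0.106). However, 8 of 12 libraries correlated best with their own number. A replicate block left 1, 2 and 1 members called in WT, SA and SD against V and gave 507, 1345 and 664 calls over all genes, and it ended the calls of EGR1, DUSP4 and DUSP5 in WT against V (adjusted p = 0.0559, 0.0580 and 0.0543). None of the member results whose sign turned when a library was left out had been called. There were 22 such results, given next as the lowest and highest log2 difference without a library. The ranges in WT against V were AREG from -0.039 to 0.073, ERBB2 from -0.082 to 0.0027, BTC from -0.30 to 0.28, HBEGF from -0.00091 to 0.46 and ERRFI1 from -0.072 to 0.00013. The ranges in SA against V were LRIG1 from -0.075 to 0.13, ERBB2 from -0.049 to 0.014, AREG from -0.087 to 0.046 and ERBB3 from -0.31 to 0.076. The ranges in SD against V were EGFR from -0.063 to 0.061, HBEGF from -0.16 to 0.30 and BTC from -0.67 to 0.067. The ranges in SD against WT were ERBB3 from -0.43 to 0.13, EREG from -0.070 to 0.020, BTC from -0.58 to 0.051 and LRIG1 from -0.11 to 0.18. The ranges in SD against SA were BTC from -0.16 to 0.56, ERBB3 from -0.54 to 0.028 and EGFR from -0.11 to 0.018. The ranges in WT against SA were ERBB3 from -0.21 to 0.038, ERBB2 from -0.054 to 0.035 and AREG from -0.031 to 0.10. Depth limits HBEGF, BTC and ERBB3 most, at 12 to 63 counts per library.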
